A study of Mus musculus with 6 samples.

Results

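Voltage-gated calcium and sodium channels were examined in bulk RNA-seq of the mouse cerebellum. The genes were all protein-coding rows of the count table whose symbol begins with *Cacna1*, *Cacna2d*, *Cacnb* or *Cacng*, or reads *Scn*, a number and a or b. This rule gave 40 genes of the 54532 in the table, of which 22046 are protein-coding, and 38 of the 40 are described here. RNA was taken from whole cerebella at postnatal day 1. The 3 control libraries (Ctrl) came from *Tox3f/f* littermates without Cre, and the 3 mutant libraries (cKO) from *Nestin-Cre;Tox3f/f* animals. Both groups therefore carry floxed alleles of *Tox3*, a gene for a chromatin protein with a high mobility group box. Nestin-Cre expresses Cre recombinase in neural cells, and the study used animals of both sexes. Cre was carried by the mutants alone, and an effect of the transgene itself cannot be told apart from that of the deletion.

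Voltage-gated calcium channels are built around a pore-forming α1 subunit, encoded by a *Cacna1* gene. L-type pores (Cav1) shape dendritic calcium signals and, in skeletal muscle, trigger contraction. P/Q-, N- and R-type pores (Cav2) admit calcium at synapses, and T-type pores (Cav3) open near the resting potential and support burst firing. The extracellular α2δ and the intracellular β subunits bring Cav1 and Cav2 pores to the membrane. The *Cacng* family was named after a muscle calcium channel subunit, but most of its members are transmembrane AMPA receptor regulatory proteins (TARPs), which carry glutamate receptors to the synapse. Sodium channels have an α subunit, which forms the pore and carries the action potential, and one or more small β subunits that set gating and adhesion. In the cerebellum, Cav2.1 and α2δ-2 are abundant in Purkinje cells, and loss of either causes ataxia in mice.

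In the mutants, *Cacna2d1*, which encodes α2δ-1, fell and 3 genes rose. *Cacna2d2*, which encodes α2δ-2, *Cacng5*, a TARP, and *Cacna1h*, a T-type pore, were higher. The call of *Cacna1h* was lost without cKO 1, and that of *Cacng5* without Ctrl 1, Ctrl 3, cKO 2 or cKO 3. *Cacna1s*, the pore of the skeletal muscle L-type channel, was also called lower, but it passed the filter on low counts only through the controls and lost its call when any 1 library was left out. Calls required both an adjusted p under 0.01 and a fold beyond 0.5 on the log2 scale. Every adjusted p below comes from the quasi-likelihood test of edgeR, corrected by Benjamini-Hochberg over the 17505 genes tested. Of the 38 channel genes, 34 passed the filter on low counts. The 2 lower genes are 5.88% of these 34, where 3.63% of all genes tested were called lower, and 1 of the 2 is *Cacna1s*. The 3 higher genes are 8.82%, where 3.03% of all genes tested were called higher. Below the fold threshold, *Cacna1g*, *Cacna1a*, *Cacng4* and *Scn3b* were also higher at an adjusted p under 0.01. With these, 7 of 34 channel genes (20.6%) passed the p threshold in the upward direction, beside 6.55% of all genes, and 2 of 34 in the downward direction, beside 7.24%. Over the 34 genes the median log2 fold change was 0.14, and over all genes tested it was -0.0070. The log2 fold change was above 0 in 29 of the 34 (85.3%), beside 49.1% of all genes. Ctrl and cKO values were fully apart in 13 of 34 (38.2%), 11 of them higher and 2 lower, beside 40.5% of all genes, 20.4% higher and 20.1% lower. In bulk tissue, fewer cells of a type and less RNA per cell cannot be told apart.

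**Figure D1:**
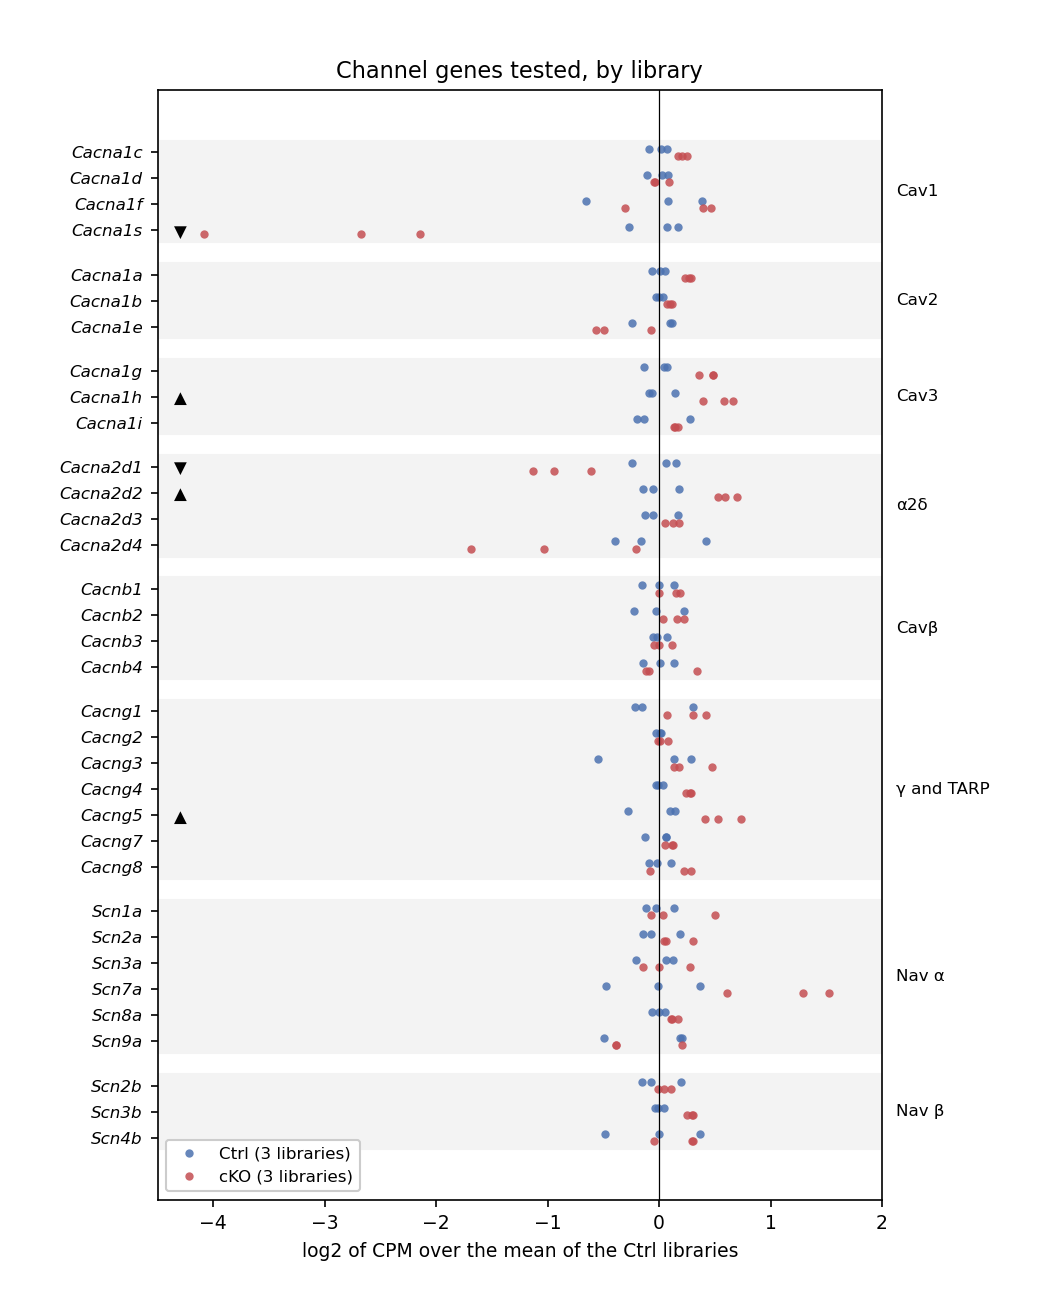
Level of each of the 34 channel genes tested, in each library, as log2 of its CPM over the mean of the 3 Ctrl libraries (blue, Ctrl; red, cKO; 3 libraries each), grouped by subunit class. Black triangles mark the 2 genes called lower (pointing down) and the 3 called higher (pointing up). The cKO points of *Cacna1s* and *Cacna2d1* lie left of all Ctrl points, and those of *Cacna2d2*, *Cacng5*, *Cacna1h*, *Cacna1g*, *Cacna1a*, *Cacng4* and *Scn3b* lie right of them.

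CPM in the following is a gene's count divided by the TMM-normalized total of its library, on the usual scale. Each library held 15391854 to 17178478 counts, and 3 counts correspond to at most 0.196 CPM. The targeted gene *Tox3* was counted at 64.3, 63.0 and 64.4 CPM in Ctrl 1, 2 and 3 and at 55.3, 63.2 and 59.2 CPM in cKO 1, 2 and 3 (log2 fold change -0.11, SE 0.06, adjusted p = 0.252, edgeR quasi-likelihood test). The count covers all exons of the gene, deleted or not, so it does not check the labels, and each direction below is that of the libraries labelled cKO against those labelled Ctrl. The cell types of the tissue did not move together. Beside the counts of marker genes that follow, 3.63% of all genes tested were called lower and 3.03% higher. All 11 granule neuron progenitor markers fell (median log2 fold change -1.09), and their summed level lay between 2226 and 2363 CPM in Ctrl and between 1015 and 1093 CPM in cKO. Of 12 granule neuron markers tested, 6 fell (median -0.50). Of 14 Purkinje cell markers, 8 rose (median 0.55), with a summed level of 2104 to 2236 CPM in Ctrl and 2852 to 3365 CPM in cKO. Of 10 astrocyte and Bergmann glia markers, 4 rose (median 0.43), as did 7 of 9 oligodendrocyte lineage markers (median 0.69). Of the other lists, 3 of 8 GABAergic markers rose and 1 fell. Among them *Gad1* and *Gad2* rose, and both are also counted with the Purkinje cell markers. Of 8 nuclear and unipolar brush cell markers 1 rose (median 0.25). At an adjusted p under 0.01 in edgeR, whatever the fold, 2 of these 8 were lower and 1 higher, beside 7.24% and 6.55% of all genes. The summed level of the 8 lay between 217 and 229 CPM in Ctrl and between 198 and 199 CPM in cKO. Further, 2 of 9 meningeal and 1 of 8 microglial markers rose. Of 9 endothelial and 5 erythrocyte markers tested, 0 were called by edgeR, DESeq2 or limma, with 1 and 0 at an unadjusted p under 0.05 in edgeR. Choroid plexus markers varied widely between the mutants, from 34.0 to 767 CPM in sum, against 128 to 196 CPM in the controls. Of these 6 markers 1 was called, *Otx2*, which fell (log2 fold change -1.16, adjusted p = 1.81e-05, edgeR quasi-likelihood test). It lay at 49.0 to 55.5 CPM in Ctrl and 22.0 to 24.7 CPM in cKO, and so did not follow the wide spread of the sum. The other markers of this list were not called and had log2 fold changes between 0.74 and 1.74. The part of these shifts in the values of the channel genes was not tested.

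The upstream sequences of 3 of the 5 called genes are shown here because *Atoh1*, whose product is a basic helix-loop-helix protein that binds E-boxes such as CAGCTG and CAGATG, was nearly absent from the mutants (log2 fold change -6.40, adjusted p = 8.85e-08, edgeR quasi-likelihood test). They are the bases before the RefSeq start (GRCm38.p6), 5′ to 3′ on the gene's strand, less any base inside an annotated exon. Capitals mark CAGCTG and CAGATG on either strand. The first belongs to *Cacna1s* (chr1:136052561-136052749, plus strand), the second to *Cacna2d1* (chr5:15934441-15934690, plus strand) and the third to the outer start of *Cacng5* (chr11:107915056-107915305, minus strand). An inner start of *Cacng5* is not shown and holds neither motif. *Cacna2d2* had no base left outside annotated exons, and *Cacna1h* was not in the table.
Cacna1s: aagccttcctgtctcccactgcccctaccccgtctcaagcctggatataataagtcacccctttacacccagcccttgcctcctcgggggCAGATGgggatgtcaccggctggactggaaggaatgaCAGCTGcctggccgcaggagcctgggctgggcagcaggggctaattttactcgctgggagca
Cacna2d1: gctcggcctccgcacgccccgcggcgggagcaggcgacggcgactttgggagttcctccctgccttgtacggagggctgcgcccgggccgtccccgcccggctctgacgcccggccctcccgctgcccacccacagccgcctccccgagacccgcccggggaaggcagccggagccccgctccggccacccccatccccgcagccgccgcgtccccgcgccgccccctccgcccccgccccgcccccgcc
Cacng5: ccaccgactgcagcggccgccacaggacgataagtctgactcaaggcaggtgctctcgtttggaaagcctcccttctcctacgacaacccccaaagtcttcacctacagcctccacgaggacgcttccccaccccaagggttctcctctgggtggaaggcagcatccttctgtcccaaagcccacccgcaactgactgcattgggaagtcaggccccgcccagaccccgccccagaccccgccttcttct
The *Cacna1s* sequence holds 1 CAGATG and 1 CAGCTG, which begin 160 and 123 bases before the start. The *Cacna2d1* sequence holds neither and is 82.4% G and C, and the *Cacng5* sequence holds neither. Over 300-base windows that run to 50 bases past the start, CAGCTG lies in 16.3% of 32851 windows of all genes and in 13 of the 41 windows of the 30 channel genes in the table (31.7%). Some genes have several starts, so the 41 windows are not independent. The 13 windows belong to 12 genes, of which *Cacna1s* alone was called. CAGATG, counted on both strands, lies in 17.2% of all windows and in 7 of these 41 (17.1%). The match is to letters only, and binding was not analysed here.

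Of the α2δ genes, 1 fell and 1 rose. *Cacna2d1* (ENSMUSG00000040118, chromosome 5 from 15934691 to 16374511, plus strand, GRCm38) encodes α2δ-1, a binding site of gabapentin. It was counted at 116, 152 and 143 CPM in Ctrl 1, 2 and 3 and at 70.9, 89.5 and 62.2 CPM in cKO 1, 2 and 3. Each mutant value lay below each control value, and the fit gave a log2 fold change of -0.88 (SE 0.13, adjusted p = 0.00114, edgeR quasi-likelihood test), a level 0.543 times that of the controls. *Cacna2d2* (ENSMUSG00000010066, chromosome 9 from 107399612 to 107529343, plus strand) encodes α2δ-2, whose loss causes the ataxia of the ducky mouse. Its 3 control values were 206, 175 and 165 CPM, and its 3 mutant values were 296, 275 and 263 CPM. The groups did not overlap, and the log2 fold change was 0.61 (SE 0.08, adjusted p = 5.55e-04, edgeR quasi-likelihood test). The other two members were not called. *Cacna2d3*, which encodes α2δ-3, had a log2 fold change of 0.12 (adjusted p = 0.402), and *Cacna2d4*, a gene known from the retina, had 33, 22 and 19 counts in Ctrl and 24, 12 and 8 in cKO (log2 fold change -0.83, SE 0.42, adjusted p = 0.179, both from edgeR's quasi-likelihood test).

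Per length, *Cacna2d2* was the most abundant α2δ gene in every library. It was deposited at 22.7 ± 2.67 FPKM in Ctrl and 34.8 ± 2.12 FPKM in cKO (SD, n = 3), and *Cacna2d1* at 10.9 ± 1.5 and 5.95 ± 1.09 FPKM. FPKM, reads scaled by gene length and library total, was used wherever levels of different genes are set side by side. *Cacna2d1* made up 24.3, 32.6 and 32.0% of the summed FPKM of the 4 genes in Ctrl 1, 2 and 3. In cKO 1, 2 and 3 its share was 12.3, 15.9 and 12%. The share of *Cacna2d2* was 67.6, 58.9 and 57.8% in the controls and 80.3, 76.3 and 79.3% in the mutants. The FPKM ratio of *Cacna2d2* to *Cacna2d1* was thus 2.79, 1.81 and 1.81 in the controls and 6.51, 4.79 and 6.62 in the mutants, and the groups did not overlap. The summed level of the class lay between 35.6 and 38.0 FPKM in the controls and between 41.7 and 46.3 FPKM in the mutants.

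**Figure D2:**
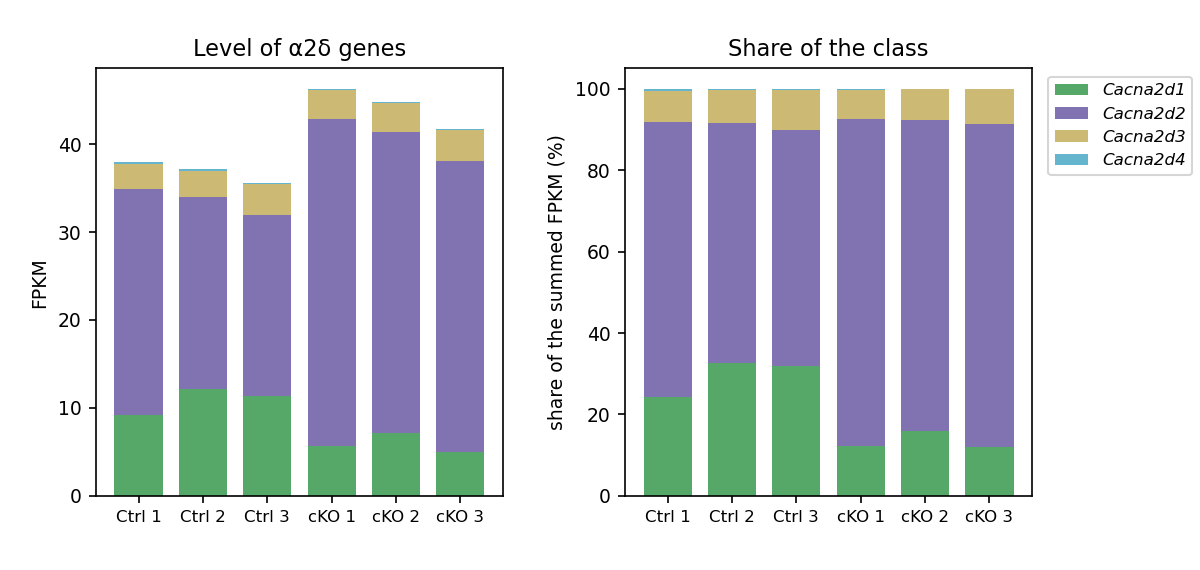
Deposited FPKM of the 4 α2δ genes, stacked for each of the 6 libraries (left), and each gene's share of the summed FPKM in percent (right). *Cacna2d1* (green) takes 24.3 to 32.6% in the Ctrl libraries and 12 to 15.9% in the cKO libraries, and *Cacna2d2* (purple) takes the largest share in all 6.

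Among the T-type pores, *Cacna1h* rose and *Cacna1g* was higher below the fold threshold. *Cacna1g* (ENSMUSG00000020866, chromosome 11 from 94408391 to 94474198, minus strand) encodes Cav3.1, the main T-type pore of Purkinje cells and nuclear neurons. Its level was 234, 206 and 238 CPM in Ctrl and at 315, 290 and 317 CPM in cKO, with no overlap (log2 fold change 0.44, SE 0.06, adjusted p = 8.64e-04, edgeR quasi-likelihood test). *Cacna1h* (ENSMUSG00000024112, chromosome 17 from 25374285 to 25433783, minus strand) encodes Cav3.2. Its values were 72.2, 62.3 and 61.3 CPM in Ctrl and 103, 85.9 and 97.7 CPM in cKO. The lowest mutant value lay above the highest control value, and the log2 fold change was 0.55 (SE 0.08, adjusted p = 0.00131, edgeR quasi-likelihood test). Without cKO 1 the log2 fold change was 0.49, below the fold threshold. *Cacna1i*, which encodes Cav3.3, was counted at 13.1 to 18.2 CPM in Ctrl and 16.6 to 17.0 CPM in cKO (log2 fold change 0.15, SE 0.13, adjusted p = 0.431, edgeR quasi-likelihood test). The proportions within the class stayed close. *Cacna1g* made up 73.1 ± 1.06% of the class FPKM in Ctrl and 72.6 ± 0.779% in cKO (SD, n = 3), while the class sum went from 27.9 to 31.5 FPKM in Ctrl to 38.6 to 43.3 FPKM in cKO.

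No Cav2 gene was called by edgeR, DESeq2 or limma, and 2 of the 3 had an unadjusted p under 0.05 in edgeR, as did 37.1% of all genes tested. *Cacna1a* (ENSMUSG00000034656, chromosome 8 from 84388440 to 84640246, plus strand) encodes Cav2.1, the P/Q-type pore that carries most calcium current of Purkinje cells. It was counted at 238, 246 and 226 CPM in Ctrl and at 286, 277 and 289 CPM in cKO. The groups did not overlap, and the log2 fold change of 0.26 (SE 0.05, adjusted p = 0.00293, edgeR quasi-likelihood test) stayed below the fold threshold. Its exons overlap those of *Gm16183* on the other strand, which had 70 to 115 counts per library beside 3523 to 4951 for *Cacna1a*. *Cacna1b*, the N-type pore, was counted at 173 to 181 CPM in Ctrl and at 185 to 191 CPM in cKO, without overlap but with an adjusted p of 0.139 (log2 fold change 0.10, edgeR quasi-likelihood test). *Cacna1e*, the R-type pore, pointed the other way. Its values were 254, 322 and 326 CPM in Ctrl and 214, 285 and 204 CPM in cKO, so that the groups overlapped (log2 fold change -0.36, SE 0.13, adjusted p = 0.0676, edgeR quasi-likelihood test). The FPKM ratio of *Cacna1a* to *Cacna1e* was 2.07, 1.69 and 1.54 in Ctrl and 2.95, 2.15 and 3.13 in cKO.

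The spread of *Cacna1e* followed Y-chromosome transcripts. *Ddx3y*, *Uty*, *Kdm5d* and *Eif2s3y* summed to 253, 203 and 207 CPM in Ctrl 1, cKO 1 and cKO 3 and to at most 0.128 CPM in Ctrl 2, Ctrl 3 and cKO 2. *Cacna1e* was lower in the first 3 libraries than in the other library or libraries of the same group. The log2 ratio of cKO to Ctrl was -0.28 among libraries with these transcripts and -0.18 among those without, and with their level as a covariate the log2 fold change was -0.24 (SE 0.05, adjusted p = 7.82e-04, edgeR quasi-likelihood test). *Scn9a* divided in the same way, with 14.5, 15.6 and 15.6 CPM in the libraries with Y transcripts and 23.1 to 23.5 CPM in those without. Its log2 fold change was -0.16 without the covariate and 0.042 with it, at adjusted p of 0.608 and 0.790 (edgeR quasi-likelihood test). *Cacna2d1* was also lowest within its group in the libraries with Y transcripts, but its log2 ratio was -0.80 among these and -0.72 among the others. The same order within each group was seen in *Scn1a*, *Scn2a*, *Scn3a* and *Cacnb4*. Outside the channel genes it was seen in *Gria2*, an AMPA receptor subunit gene, and in the progenitor marker *Mki67*. The division is thus not particular to *Cacna1e*, *Scn9a* and *Cacna2d1*. For *Cacna1h* the covariate gave a log2 fold change of 0.48, below the fold threshold. Each such set holds 1 library of one group and 2 of the other, so these ratios have no error. Sex and other properties shared by these libraries cannot be told apart.

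**Figure D3:**
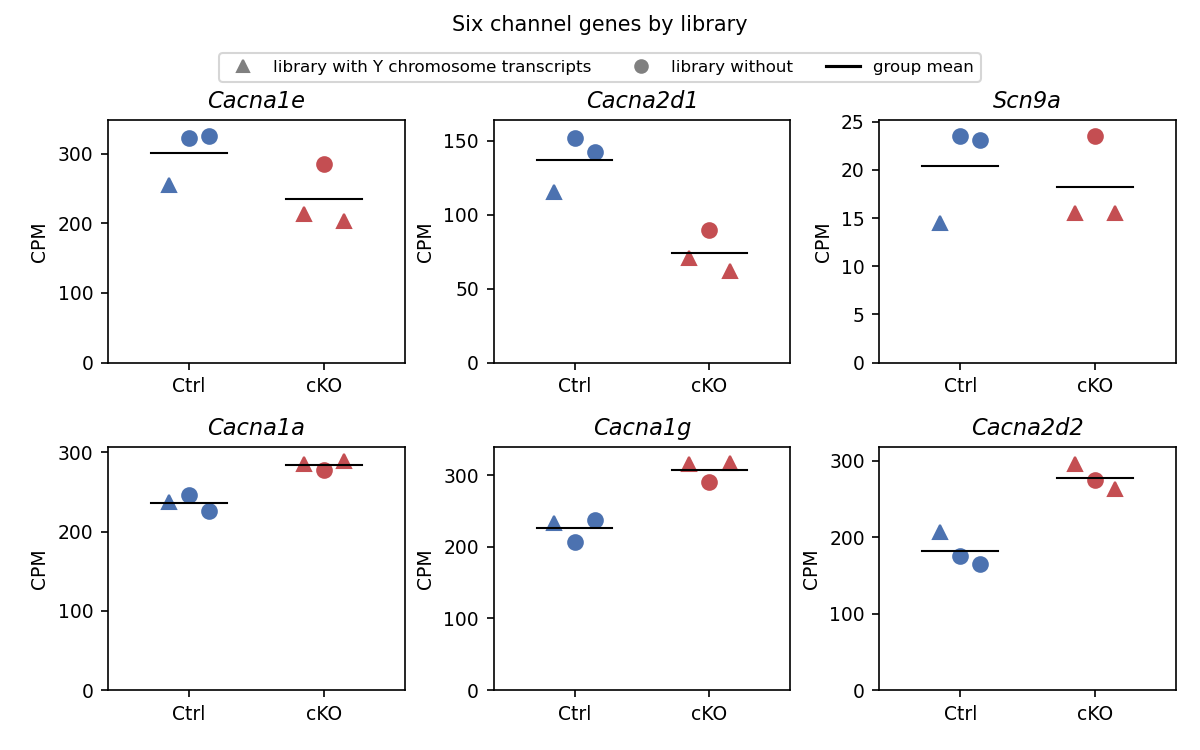
CPM of 6 channel genes in each library of Ctrl (blue) and cKO (red), with triangles for the 3 libraries that hold Y-chromosome transcripts, circles for the 3 that do not, and a line at each group's mean. For *Cacna1e* and *Scn9a* the triangles lie lowest in both groups; for *Cacna2d1* every cKO point lies below every Ctrl point within each kind of library, and for *Cacna1a*, *Cacna1g* and *Cacna2d2* above.

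Of the L-type genes, *Cacna1s* was called lower from few counts, and the neuronal pores were not called. *Cacna1s* (ENSMUSG00000026407, chromosome 1 from 136052750 to 136119822, plus strand) encodes Cav1.1, the voltage sensor of skeletal muscle. It had 14, 19 and 18 counts in Ctrl 1, 2 and 3 and 3, 1 and 4 counts in cKO 1, 2 and 3, or 0.911, 1.24 and 1.16 CPM and 0.173, 0.0652 and 0.249 CPM. The ratio of the summed counts, 8 against 51, scaled to library totals, was 0.149 (95% exact interval 0.0611 to 0.316, counting error only). The fitted log2 fold change was -2.69 (SE 0.51, adjusted p = 0.00384, edgeR quasi-likelihood test). *Cacna1s* passed the filter on low counts only through the controls, and its adjusted p lay between 0.0103 and 0.0213 when any single library was left out, so that the call was lost each time. Skeletal muscle markers were low throughout, with a summed level of 25.8 to 28.6 CPM in Ctrl and 52.3 to 53.1 CPM in cKO. Of 10 such markers 7 were tested. *Myh8*, a perinatal myosin, rose (log2 fold change 1.33, adjusted p = 9.61e-06, edgeR quasi-likelihood test), and the other 9 together summed to 10.2 to 11.4 CPM in Ctrl and 10.3 to 12.1 CPM in cKO. *Myod1*, a regulator of muscle identity, was called lower (-2.52, adjusted p = 0.00696, edgeR quasi-likelihood test), but like *Cacna1s* it passed the filter only through the controls and had no adjusted p in DESeq2. *Ckm* and *Myog* did not exceed 0.193 CPM in any library. The part of muscle tissue in the values of *Cacna1s* was not tested.

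The neuronal L-type pores were far more abundant. *Cacna1c*, which encodes Cav1.2, was the highest of the class in cKO with 6.37 ± 0.211 FPKM, against 5.47 ± 0.305 FPKM in Ctrl (SD, n = 3). Library values were 123, 118 and 110 CPM in Ctrl and at 140, 132 and 135 CPM in cKO. The groups did not overlap, but the log2 fold change of 0.21 (SE 0.06) had an adjusted p of 0.0189 (edgeR quasi-likelihood test). *Cacna1d*, which encodes Cav1.3, lay at 62.2 to 70.9 CPM in Ctrl and 65.1 to 71.4 CPM in cKO (log2 fold change 0.0036, SE 0.07). *Cacna1f*, a retinal pore on chromosome X, had 12 to 25 counts in Ctrl and 16 to 28 in cKO.

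None of the 4 β subunit genes was called by edgeR, DESeq2 or limma. Their groups overlapped, and 0 of 4 had an unadjusted p under 0.05 in edgeR. *Cacnb3* was the most abundant per length, with 23.5 ± 1.0 FPKM in Ctrl and 24.1 ± 1.48 FPKM in cKO (SD, n = 3). It was counted at 99.8, 91.6 and 94.2 CPM in Ctrl and at 95.3, 92.5 and 103 CPM in cKO (log2 fold change 0.03, SE 0.06, adjusted p = 0.775, edgeR quasi-likelihood test). *Cacnb1*, *Cacnb2* and *Cacnb4*, the last of which is mutated in the ataxic lethargic mouse, had log2 fold changes between 0.06 and 0.14, and the largest SE among them was 0.13.

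**Figure D4:**
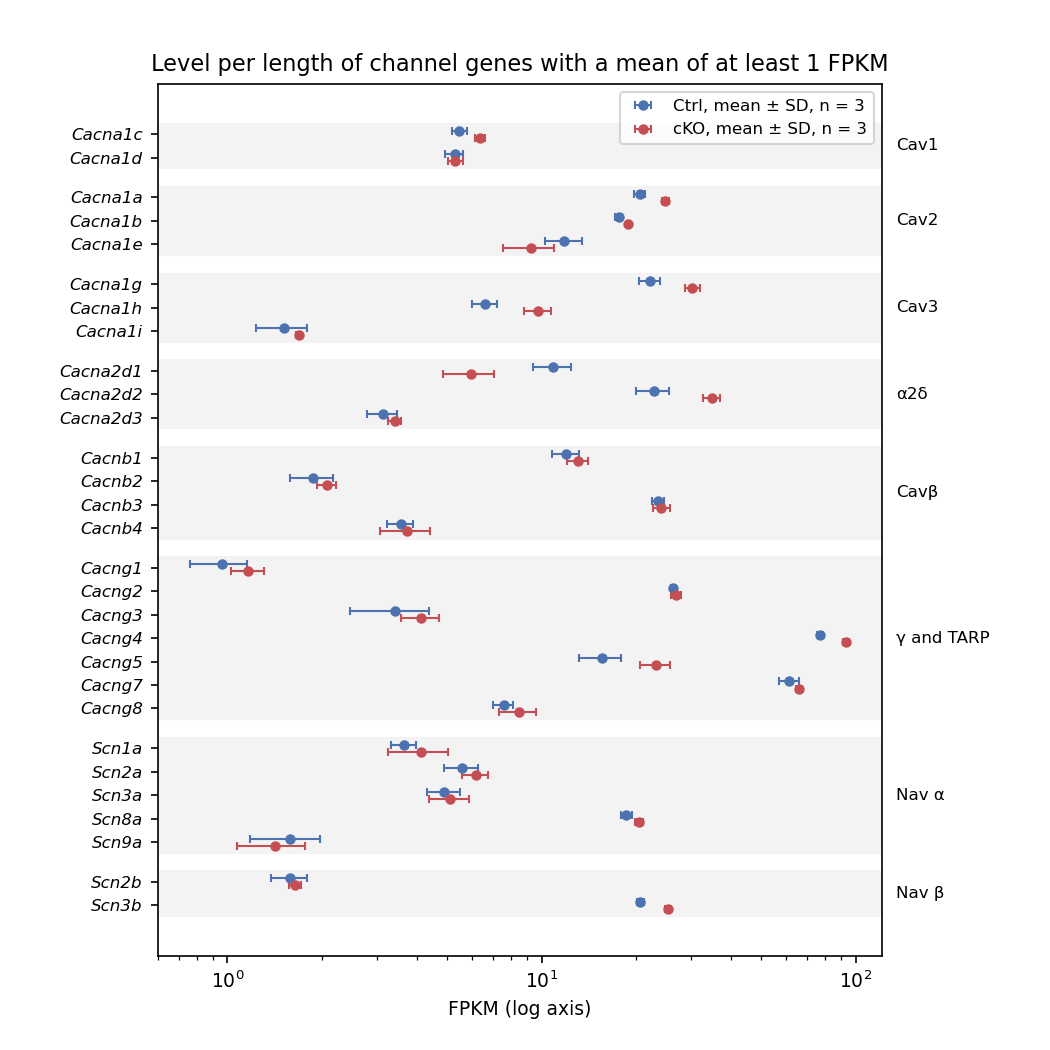
Mean FPKM of channel genes with a mean of at least 1 FPKM in either group, on a log axis, by subunit class (blue, Ctrl; red, cKO; bars, SD; n = 3). *Cacng4* is the highest of all, at 77.0 FPKM in Ctrl and 93.2 FPKM in cKO, followed by *Cacng7*.

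The TARP genes held the highest levels of all. *Cacng4* (ENSMUSG00000020723, chromosome 11 from 107732357 to 107794557, minus strand), an early expressed TARP, was deposited at 77.0 ± 1.69 FPKM in Ctrl and 93.2 ± 2.04 FPKM in cKO (SD, n = 3). Its counts correspond to 285, 276 and 273 CPM in Ctrl and 336, 328 and 339 CPM in cKO. These values did not overlap, and the log2 fold change was 0.27 (SE 0.04, adjusted p = 0.00163, edgeR quasi-likelihood test), below the fold threshold. *Cacng5* (ENSMUSG00000040373, chromosome 11 from 107874605 to 107915055, minus strand) encodes γ-5, a TARP of Bergmann glia. It rose from 64.4, 66.5 and 49.6 CPM in Ctrl to 79.9, 100.4 and 86.8 CPM in cKO (log2 fold change 0.56, SE 0.12, adjusted p = 0.00592, edgeR quasi-likelihood test). The groups did not overlap, but the call was lost without Ctrl 1, Ctrl 3, cKO 2 or cKO 3, where the log2 fold change lay between 0.44 and 0.62 and the adjusted p between 0.00927 and 0.0196. *Cacng4* and *Cacng5* are neighbours, 80.0 kb apart, and *Cacng1*, the muscle γ1 gene 15.8 kb from *Cacng4*, had 16 to 23 counts in Ctrl and 22 to 26 in cKO (log2 fold change 0.27, SE 0.30).

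The remaining TARP genes were not called. *Cacng2* encodes stargazin, which carries AMPA receptors to the granule cell surface, and was counted at 143 to 147 CPM in Ctrl and 144 to 154 CPM in cKO (log2 fold change 0.025, SE 0.05). *Cacng7* lay at 138 to 158 CPM in Ctrl and 157 to 165 CPM in cKO (log2 fold change 0.10, SE 0.06). *Cacng3* and *Cacng8* had log2 fold changes of 0.27 (SE 0.20) and 0.15 (SE 0.11). *Cacng2* shares exonic bases with *A730060N03Rik* on the other strand, which had 104 to 224 counts per library beside 2223 to 2501 for *Cacng2*. *Cacng6*, a γ subunit of muscle, was not tested, with at most 5 counts in a library.

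Of the 3 sodium channel β subunit genes tested here, 0 were called by edgeR, DESeq2 or limma, and in edgeR the unadjusted p was under 0.05 for 1. *Scn3b* (ENSMUSG00000049281, chromosome 9 from 40269217 to 40291618, plus strand) encodes β3, known from the immature brain, and was higher below the fold threshold. Its values were 117, 113 and 111 CPM in Ctrl and 141, 140 and 135 CPM in cKO (log2 fold change 0.28, SE 0.05, adjusted p = 0.00201, edgeR quasi-likelihood test). *Scn3b* was the most abundant of these β genes, with 20.6 ± 0.530 FPKM in Ctrl and 25.2 ± 0.508 FPKM in cKO (SD, n = 3). *Scn2b* and *Scn4b* lay under 2 FPKM, with log2 fold changes of 0.05 (SE 0.14) and 0.19 (SE 0.26).

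No sodium channel pore described here was called by edgeR, DESeq2 or limma, and 2 of the 6 tested (33.3%) had an unadjusted p under 0.05 in edgeR, beside 37.1% of all genes. *Scn8a* encodes Nav1.6, the pore of the mature axon initial segment, and took 54.1 ± 3.54% of the summed FPKM of the 9 pores described in Ctrl and 54.6 ± 4.18% in cKO (SD, n = 3). Library values were 308, 296 and 284 CPM in Ctrl and 333, 319 and 320 CPM in cKO. The groups did not overlap, but the log2 fold change of 0.13 (SE 0.05) had an adjusted p of 0.0732 (edgeR quasi-likelihood test). *Scn1a*, *Scn2a* and *Scn3a*, which encode Nav1.1, Nav1.2 and the embryonic Nav1.3, lie with *Scn9a* and *Scn7a* in a cluster on chromosome 2. Their log2 fold changes were 0.18, 0.14 and 0.05, with SE between 0.10 and 0.14 and overlapping groups. *Scn9a*, described above with the Y-chromosome transcripts, was not called. The other pores had few counts. *Scn7a*, whose product senses sodium levels, had 9, 5 and 7 counts in Ctrl and 12, 17 and 21 in cKO (log2 fold change 1.17, SE 0.43, adjusted p = 0.0762, edgeR quasi-likelihood test). Its groups did not overlap, and it passed the filter on low counts only through the mutants. Sensory neuron and Schwann cell markers summed to 39.9 to 54.3 CPM in Ctrl and 48.7 to 84.6 CPM in cKO, and their part in this was not tested. *Scn4a* of skeletal muscle had at most 5 counts, and the sensory neuron pores *Scn10a* and *Scn11a* had at most 2 and 12, so that these 3 were not tested.

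Genes that act with the channels were followed in lists. Of 16 sodium channel partners tested 0 were called by edgeR, DESeq2 or limma (median log2 fold change 0.12). In edgeR, 7 had an unadjusted p under 0.05 (37.1% of all genes did). At an adjusted p under 0.01 in edgeR, 1 of the 16 was lower and 2 were higher, all below the fold threshold. At this p, whatever the fold, 7.24% of all genes were lower and 6.55% higher. These partners were picked out after their values were seen. *Ank3*, whose product ankyrin-G gathers sodium channels at the axon initial segment, was counted at 447 to 476 CPM in Ctrl and 328 to 377 CPM in cKO (log2 fold change -0.41, SE 0.06, adjusted p = 0.00122, edgeR quasi-likelihood test). *Sptbn4*, the βIV spectrin of the same site, and *Nfasc*, its adhesion molecule, had log2 fold changes of 0.37 and 0.22. Of 26 calcium channel partners tested, 4 rose and 0 fell (median 0.15), where 3.03% of all genes were called higher and 3.63% lower. *Stac* and *Stac2*, adaptors of L-type channels, had log2 fold changes of 0.62 and 0.64. *Rimbp2*, which ties calcium channels to the release site, had 0.67, and *Camk2a*, a calcium-dependent kinase, had 0.59. Of these, *Rimbp2* was not called by limma (adjusted p = 0.0175). Below the fold threshold, 3 more partners were higher at an adjusted p under 0.01 in edgeR and 1 was lower. Whatever the fold, 7 of the 26 were higher at this p and 1 was lower, beside 6.55% and 7.24% of all genes. Those below the fold threshold are named here after their values were seen. *Rab3a*, *Caskin1* and *Camk2b* had log2 fold changes of 0.26, 0.28 and 0.27, and *Ryr2*, a calcium release channel, had -0.49 (adjusted p = 0.00228, edgeR quasi-likelihood test).

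Of 12 other calcium entry and store channels tested, 3 were higher at an adjusted p under 0.01 in edgeR and 0 were lower. At this p, whatever the fold, 6.55% of all genes were higher and 7.24% lower. The median log2 fold change of the 12 was 0.08. With the fold threshold 1 rose, beside 3.03% of all genes. This was *Itpr1*, the calcium release channel of the Purkinje cell endoplasmic reticulum, at 411, 465 and 445 CPM in Ctrl and 539, 690 and 644 CPM in cKO (log2 fold change 0.50, SE 0.09, adjusted p = 0.00223, edgeR quasi-likelihood test), and it is also among the Purkinje cell markers above. In limma its log2 fold change of 0.49 was below the fold threshold. Of 11 AMPA receptor subunits and auxiliary subunits outside the *Cacng* family, 1 fell and 1 rose (median 0.26). Of all genes, 3.63% were called lower and 3.03% higher. At an adjusted p under 0.01 in edgeR, whatever the fold, 6 of the 11 were higher and 1 was lower. By this measure 6.55% of all genes were higher and 7.24% lower. *Gsg1l*, an auxiliary subunit that dampens AMPA receptor currents, fell from 134 to 144 CPM in Ctrl to 91.4 to 97.1 CPM in cKO (log2 fold change -0.57, adjusted p = 6.90e-05, edgeR quasi-likelihood test). *Shisa6*, another auxiliary subunit, rose from 73.1 to 78.6 CPM to 107 to 112 CPM (0.53, adjusted p = 1.06e-04, same test), but stood at 0.50 in limma, just below the fold threshold.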

How the data were processed

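Bulk mRNA of 3 Ctrl and 3 cKO cerebella was measured, and samples were grouped by their labels. The authors deposited raw counts per gene and FPKM values, made from 150 bp paired-end reads aligned to mm10 with HISAT2 2.0.5 and counted with featureCounts 1.5.0-p3. Strand setting, annotation release and treatment of reads with several matches are not given in the sources used here, so reads of overlapping exons may have been shared. For called genes, overlapping genes on the other strand had at most 5 counts. Counts of all genes were fitted with edgeR 4.0.16 under R 4.3.3 (TMM, filterByExpr, glmQLFit, glmQLFTest, no block), and SE is the log2 fold change over the root of F. Deposited FPKM were used for levels per length. Alternatives used DESeq2 1.42.0 and limma 3.58.1 (pseudocounts 1 and 0.1). Fits were tested on simulated counts with 200 changed genes. Of the 40 channel genes, 2 are not reported here. The channel genes and the gene lists were chosen with earlier results of these data known. Full values were given for called genes, genes at an adjusted p under 0.01 and the highest of each class; of other lists, called genes. A permutation of 3 against 3 libraries cannot give a two-sided p under 0.1. Same-group libraries differed by more than sampling noise (chi-square per gene 3.63 to 10.0). Nothing says how many animals gave each library, so p-values measure the spread between these samples.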

Additional observations from a re-analysis of the deposited data

How the results depend on the processing

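The number of channel genes called higher was 3 with DESeq2, with either other scaling, with both other filters on counts and with the replicate number as a block. It was 2 with Y transcripts as a covariate and with limma on log2(FPKM + 0.1), 1 on log2(FPKM + 1) and 0 on that scale without a filter. It was 7 without a fold threshold, 8 at an adjusted p under 0.05 without one, and 0 when the fold change was tested against 0.5 itself. Leaving out single libraries gave 2 to 3. The number called lower was 2 with other scalings, no filter, the block or the covariate. It was 1 with DESeq2, where *Cacna1s* had no adjusted p, with at least 10 counts in every library, where it was not tested, and with limma on either FPKM scale. It was 0 on log2(FPKM + 1) without a filter and against a fold change of 0.5, and 1 to 2 with single libraries left out. Without cKO 2, the lower genes were *Cacna2d1* and *Cacna1e* (-0.52, edgeR adjusted p = 0.00320).

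At the same thresholds, *Cacna2d1* and *Cacna2d2* lost theirs only on log2(FPKM + 1) without a filter. *Cacna1h* lost its call in 4 alternatives and *Cacng5* in 7. Reversals were found only among genes that were not called. With Y transcripts as a covariate the log2 fold changes were -0.0047 for *Cacnb3*, -0.011 for *Cacna1d* and 0.042 for *Scn9a*. With single libraries left out they ranged from -0.0031 to 0.044 for *Cacng2*, -0.020 to 0.071 for *Cacnb3*, -0.050 to 0.043 for *Cacna1d*, -0.062 to 0.15 for *Scn3a*, -0.0062 to 0.29 for *Scn1a*, -0.091 to 0.14 for *Cacnb4*, -0.023 to 0.16 for *Scn2b*, -0.0023 to 0.42 for *Scn4b* and -0.019 to 0.46 for *Cacna1f*. With a trend on gene length removed, *Cacna1a*, *Cacna1b*, *Cacna1c* and *Scn8a* moved to 0.32, 0.15, 0.32 and 0.21. Of 573 alternative values, 530 were counted as the same. For most settings this meant that direction and side of the thresholds were kept. With the length trend removed, it meant a value within the SE of the main one. The causes were not tested. Same-numbered libraries correlated at r = 0.26, 0.30 and -0.16 in their deviations. Between Ctrl and cKO libraries, r was above 0 only where both held or both lacked Y transcripts. These correlations therefore cannot show whether the numbers pair the libraries. With the replicate block 2 channel genes were lower and 3 higher, and *Cacna1e* had an adjusted p of 0.00886. *Cacna1s*, *Cacna2d4* and *Scn7a* are limited by counts.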
